A study of Mus musculus with 8 samples.

Results

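Ebf1, Isl1, Zfp503 and Rarb are 4 transcription factor genes best known from the striatum, and their levels are described here in nuclei of the embryonic mouse cortex with and without the long noncoding RNA gene Pantr2. They were chosen by their symbols, and all 4 were found among the 14166 genes of the deposited tables. Nuclei came from the dissected dorsal telencephalon, the embryonic region that forms the cerebral cortex, of C57BL/6J embryos at E15.5. They were profiled with single-nucleus RNA sequencing (10x Genomics 3′ chemistry, v2), in which each RNA molecule is counted once by its unique molecular identifier (UMI). The groups were 4 wildtype samples and 4 samples with a Pantr2 knockout (Pantr2-/-), with replicate numbers 1 to 4 in each. The labels name no Cre driver or transgene, and they do not say whether a sample is 1 embryo or a pool, so p-values measure the spread between these samples.

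Projection neurons of the striatum are born in the lateral ganglionic eminence of the ventral telencephalon and use GABA, whereas projection neurons of the cortex are born in the dorsal telencephalon and use glutamate. Isl1 is a LIM homeodomain factor and Ebf1 a helix-loop-helix factor of the early B-cell factor family. Both are known from the differentiation of striatal neurons of the direct pathway. Zfp503 (also called Nolz1) is a zinc finger protein known from newborn striatal neurons, and Rarb is a nuclear receptor that binds retinoic acid. Ebf1 is also known outside the striatum, in B cells and in other developing neurons.

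In the GENCODE annotation of GRCm38, Ebf1 lies on chromosome 11 from 44617317 to 45008091 on the + strand. Isl1 lies on chromosome 13 from 116298281 to 116309689, Zfp503 on chromosome 14 from 21983959 to 21989601 and Rarb on chromosome 14 from 16430839 to 16819156, these 3 on the - strand. Ebf1 and Rarb span 390.8 and 388.3 kb, Isl1 and Zfp503 only 11.41 and 5.643 kb. Rarb overlaps Top2b on the opposite strand, which held 30871 UMIs in these files. Whether reads were counted by strand is not given in the sources used here, so reads of the shared stretch cannot be told apart. Nuclear RNA holds introns, so levels were compared between samples and clusters and not between genes.

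Promoters are shown for Isl1 and Zfp503, which fell in the knockout, and for Rarb, whose promoter is known to answer to retinoic acid. They are the 250 bases before a RefSeq start site (GRCm38.p6, all 3 read on the - strand), at chr13:116309689-116309938 for Isl1, chr14:21989602-21989851 for Zfp503 and chr14:16575477-16575726 for Rarb. All 4 genes matched the promoter table, with 5 windows, since Ebf1 has 2 start sites. Capitals in Rarb mark a direct repeat of the retinoid response element type.
Isl1: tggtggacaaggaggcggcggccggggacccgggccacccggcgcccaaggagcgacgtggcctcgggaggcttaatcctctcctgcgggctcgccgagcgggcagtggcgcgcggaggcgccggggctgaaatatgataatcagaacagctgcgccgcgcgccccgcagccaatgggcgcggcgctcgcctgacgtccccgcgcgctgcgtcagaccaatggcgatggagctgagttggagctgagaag
Zfp503: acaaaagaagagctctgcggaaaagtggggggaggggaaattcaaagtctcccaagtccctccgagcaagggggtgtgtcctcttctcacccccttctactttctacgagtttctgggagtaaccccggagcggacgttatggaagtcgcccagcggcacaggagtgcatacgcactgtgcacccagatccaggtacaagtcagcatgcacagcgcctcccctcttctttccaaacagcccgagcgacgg
Rarb: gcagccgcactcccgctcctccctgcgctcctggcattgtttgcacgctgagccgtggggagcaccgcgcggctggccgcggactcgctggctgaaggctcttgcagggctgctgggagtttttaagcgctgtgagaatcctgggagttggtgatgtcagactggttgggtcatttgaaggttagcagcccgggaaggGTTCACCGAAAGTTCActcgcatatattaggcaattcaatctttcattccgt
The marked repeat, GTTCA and again GTTCA with 6 bases between on either strand, stood 52 to 37 bases before the start site of Rarb, and 22 of 32851 windows (0.067%) held it. This pattern was added after the sequence was seen. The other patterns searched on both strands were in none of the 5 windows: TCCC and GGGA with 2 bases between, of EBF factors (0.779% of all windows), TAATTA (4.84%) and TAATTG (7.17%) of homeodomain factors, and, as retinoid elements, a repeat of AGGTCA (0.00913%) or of GTTCA (0.0304%) with 5 bases between. A match describes the letters of the window and not binding. The Isl1 window held 71.2% G and C, against a median of 52.4% over all windows, and the Zfp503 window 57.2%.

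The files hold 67319 nuclei, 33781 wildtype and 33538 knockout, with 20446698 to 34083796 UMIs per sample and a median of 2570 to 2905 UMIs per nucleus. Pairs of libraries shared 8 to 30 cell barcodes (0.109% to 0.371% of the smaller library). Pantr2 itself was not analysed here, so the labels were not checked by the targeted gene. Xist, the RNA of the inactive X chromosome, had no UMI in wildtype 4, knockout 1 and knockout 4, and 77 to 128 UMIs in the other 5 samples. The deposited tables place each nucleus in 1 of 7 clusters. Cluster 4 had the highest level of 11 of 11 apical progenitor markers and is called apical progenitor-like, and cluster 5 that of 5 of 6 intermediate progenitor markers (intermediate progenitor-like). Cluster 1 had the highest level of 5 of 6 upper-layer neuron markers (upper-layer-like), and clusters 2 and 3 of 4 of 10 deep-layer markers each (deep-layer-like). Clusters 6 and 7 are left unnamed. In all these counts a marker was counted only above a minimum level and well above the median of the other clusters. Rare markers could therefore not be counted for any cluster. Counted so, no cluster had the highest level of more than 4 of 18 other striatal markers or of more than 4 of 11 ventral GABAergic markers. That was cluster 4 for both, and the limits on level and margin hold these counts down.

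Over all nuclei, Isl1 and Zfp503 fell in the knockout, and Ebf1 and Rarb had lower means that did not pass the test. Levels are given in CPM, the UMIs of a gene scaled to a common library total. Isl1 stood at 4.15, 2.27, 4.22 and 8.06 CPM in wildtype 1 to 4 and at 1.37, 0.206, 0.981 and 0.601 in knockout 1 to 4. Every wildtype sample was above every knockout sample, with wildtype 4 far above the rest. The means were 4.67 ± 2.43 and 0.790 ± 0.501 (SD, n = 4 each), from 480 UMIs in wildtype and 71 in knockout. The log2 fold change, knockout over wildtype, was -2.65 ± 0.50 (SE), with an adjusted p of 0.0154 in edgeR's quasi-likelihood test. Without knockout 3 the adjusted p was 0.0520, above the threshold of 0.05.

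Zfp503 was rarer still. It stood at 1.11, 1.86, 1.03 and 2.71 CPM in wildtype and at 0.994, 0.294, 0.128 and 0.250 in knockout, with 25 to 74 UMIs per wildtype sample and 3 to 21 per knockout sample. The groups did not overlap, but knockout 1 lay just under wildtype 3. The means were 1.68 ± 0.79 and 0.417 ± 0.391 (SD, n = 4 each), and the log2 fold change was -2.07 ± 0.51 (edgeR, adjusted p = 0.0480). The call was lost without wildtype 2, wildtype 4, knockout 2, knockout 3 or knockout 4, with adjusted p from 0.0766 to 0.163 (edgeR).

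Rarb was at 10.3, 12.6, 9.06 and 12.5 CPM in wildtype and at 9.47, 7.65, 7.25 and 9.31 in knockout. The groups overlapped, and the log2 fold change of -0.40 ± 0.13 had an adjusted p of 0.124 (edgeR). Ebf1 was at 38.1, 46.9, 29.8 and 62.5 CPM in wildtype and at 36.0, 26.8, 26.1 and 29.8 in knockout. Here too the groups overlapped, with knockout 1 and wildtype 3 the samples nearest to the other group. The log2 fold change of Ebf1 was -0.58 ± 0.20 with an adjusted p of 0.137 (edgeR). With sex, read from Xist, as a covariate, both passed: the adjusted p was 0.0302 for Ebf1 and 0.0454 for Rarb (edgeR). Ebf1 also passed without wildtype 3 (adjusted p = 0.0455).

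Thus 2 of the 4 genes were called lower, and 3.58% of the 13927 genes tested were called lower in the same fit. Zfp503 passed the filter on low counts through its wildtype samples, with 10, 3 and 5 UMIs in knockout 2 to 4. Its call is therefore not weighed against that share. The median log2 fold change of the 4 was -1.32, against 0.00 over all genes tested. The groups did not overlap, with wildtype higher, for 2 of the 4 genes, Isl1 and Zfp503, and for 7.10% of all genes tested. Since both the median and this count include Zfp503, they are likewise not weighed against the values of all genes.

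**Figure D1:**
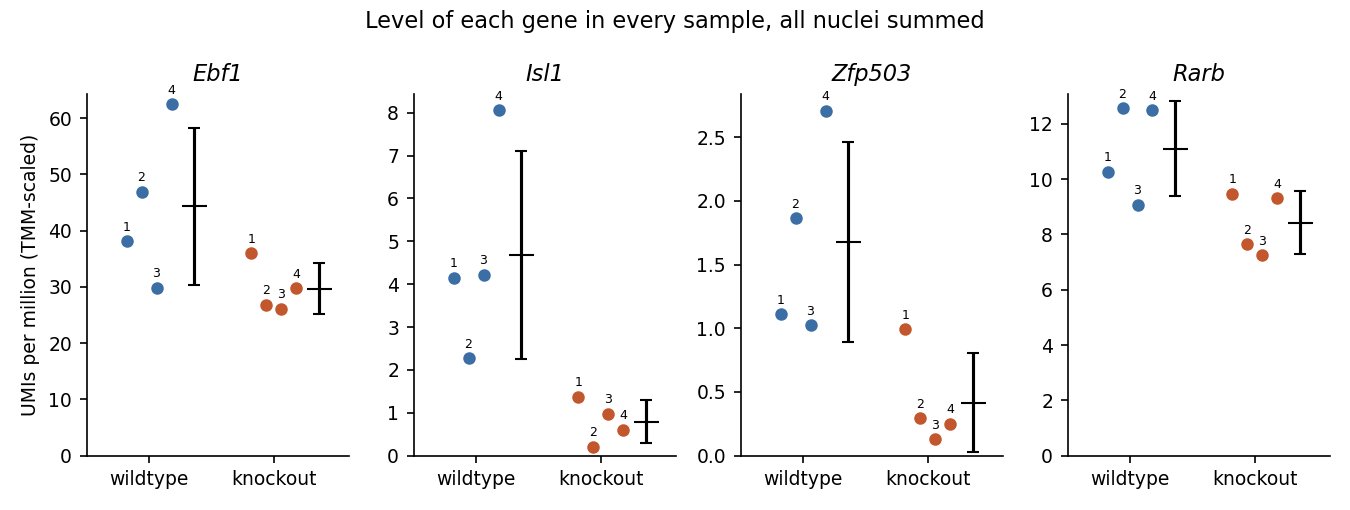
CPM (vertical axes, scaled by TMM factors, each starting at 0) of Ebf1, Isl1, Zfp503 and Rarb over all nuclei of each sample. Numbered points are replicates, and the black bars are the mean and SD of 4 samples: Isl1 runs from 2.27 to 8.06 in wildtype and from 0.206 to 1.37 in knockout.

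Across the clusters the 4 genes had different patterns. Ebf1 was highest in the intermediate progenitor-like cluster 5, at 179 ± 30 CPM in wildtype (SD, n = 4), and next in the apical progenitor-like cluster 4, at 61.1 ± 40.7. All 4 wildtype samples of cluster 5 (148 to 208) were above all 4 of cluster 4 (23.3 to 112). The order went on with cluster 7 (35.4 ± 3.2), cluster 1 (34.8 ± 7.1), cluster 6 (30.7 ± 17.5), cluster 3 (19.4 ± 8.3) and cluster 2 (15.2 ± 9.4). Apart from clusters 5 and 4, neighbours in this order overlapped in their samples.

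Isl1 and Zfp503 showed no such peak. In wildtype, Isl1 ran only from 3.87 ± 2.09 CPM in cluster 6 to 5.72 ± 3.63 in cluster 5, and every neighbour in the order overlapped. The share of wildtype nuclei with an Isl1 UMI was 1.23% to 1.43% in the 7 clusters, and in knockout it was 0.154% to 0.321%. With every nucleus thinned to 1400 UMIs, the wildtype shares were 0.432% to 0.795%. The excitatory neuron clusters 1 to 3, which are not known to use Isl1, had 1.33%, 1.43% and 1.41% of wildtype nuclei with a UMI, no less than the 1.23% of the progenitor cluster 4. With such like low shares, single Isl1 UMIs are not read here as expression by a given cluster, and the part of RNA free in the droplets was not tested. Zfp503 ran from 1.30 ± 1.04 CPM in cluster 3 to 2.33 ± 1.11 in cluster 4 in wildtype, with all neighbours overlapping. A Zfp503 UMI was in 0.409% to 0.691% of wildtype nuclei of the 7 clusters, and single UMIs are read in the same way.

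Rarb was spread over the clusters with a small tilt. In wildtype it was highest in the apical progenitor-like cluster 4, at 16.03 ± 8.27 CPM, followed by the deep-layer-like cluster 3 at 13.4 ± 3.1, cluster 7 at 11.2 ± 3.6 and cluster 6 at 10.7 ± 2.4. Cluster 2 at 9.64 ± 1.26, cluster 5 at 8.29 ± 2.68 and the upper-layer-like cluster 1 at 7.76 ± 1.65 were lower. All neighbours overlapped. The range within cluster 4 was wide, from 6.01 in wildtype 3 to 24.5 in wildtype 2.

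**Figure D2:**
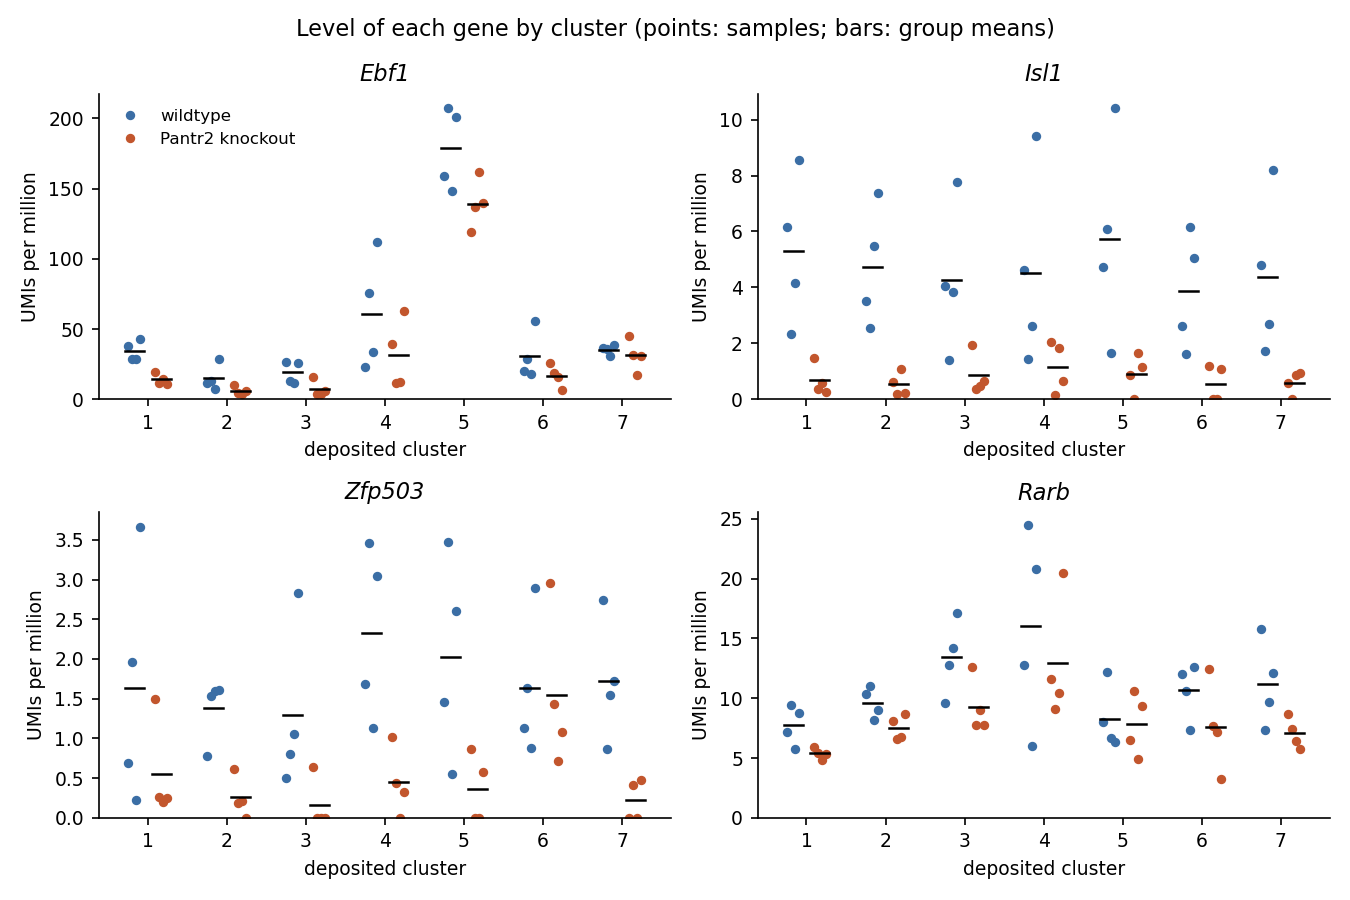
CPM of the sample's UMIs in a cluster (vertical axes, from 0) for the 4 genes in the 7 deposited clusters, with 1 point per sample and a bar at the mean of 4 samples. Ebf1 peaks in cluster 5 in both groups (means 179 and 139), while Isl1 is at similar levels in every cluster within a group.

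Counted cluster by cluster, UMIs of Isl1 and of Ebf1 fell in clusters 1 and 2. For Isl1 in cluster 1 all 109 UMIs were the only one in their nucleus, where 0.870 nuclei with 2 or more were expected. In cluster 2, 3 nuclei held 2 or more against 0.744 expected. Counts this low cannot tell whether these nuclei expressed Isl1. Its calls in both clusters describe UMIs counted with the nuclei and are not read as a change of expression by them. Isl1 and Ebf1 in clusters 1 and 2 were the 4 calls among 16 tests of the 4 genes that passed the filter on low counts. They were 2 of 3 tests in cluster 1 and 2 of 3 in cluster 2. In these fits 2.30% and 5.19% of all genes tested were called lower. Isl1 passed the filter only through its wildtype samples, with 1 to 4 UMIs per knockout sample in cluster 1 and 1 to 5 in cluster 2. Its calls are therefore not weighed against those shares. Layer markers moved there too: 5 of 6 upper-layer genes were called lower and 5 of 10 deep-layer genes higher in cluster 1, and 6 of 6 lower (median -1.31) and 5 of 10 higher in cluster 2. The part of such a shift in the levels of Ebf1 and Isl1 was not tested. Isl1 was too rare to be tested in clusters 3 to 7, and Zfp503 in any cluster.

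In the upper-layer-like cluster 1, Ebf1 had 111, 148, 131 and 247 UMIs in wildtype and 52, 93, 76 and 42 in knockout. In CPM these were 34.4 ± 6.7 and 14.3 ± 3.7 (SD, n = 4 each, TMM-scaled), and the groups did not overlap, as for 4.78% of all genes tested there. The log2 fold change was -1.31 ± 0.17 with an adjusted p of 3.93e-04 (edgeR), the smallest adjusted p of the 16 tests. Isl1 had 18, 12, 19 and 49 UMIs in wildtype and 4, 3, 3 and 1 in knockout there. Its log2 fold change was -3.14 ± 0.52 (edgeR, adjusted p = 0.00253), and each knockout sample was below each wildtype sample. With 11 UMIs in knockout, the pooled UMI rate was 9.52 times higher in wildtype, with a 95% interval of 5.10 to 19.7 that covers counting error only.

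In the deep-layer-like cluster 2, Isl1 had 18, 10, 24 and 32 UMIs in wildtype and 2, 1, 5 and 1 in knockout, again without overlap. Of all genes tested there, 7.73% had no overlap with wildtype higher. Isl1 is not weighed against this share either, since it passed the filter only through its wildtype samples. The log2 fold change was -3.11 ± 0.50 (edgeR, adjusted p = 0.00145). Ebf1 in this cluster had 58, 52, 32 and 125 UMIs in wildtype and 33, 24, 17 and 24 in knockout, and the groups overlapped. Its log2 fold change of -1.38 ± 0.40 only just passed (edgeR, adjusted p = 0.0477). It no longer passed without wildtype 1, 2 or 4 or knockout 2, 3 or 4, with adjusted p from 0.0542 to 0.150, nor with DESeq2 (adjusted p = 0.115). Without wildtype 4 the log2 fold change was -0.87.

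In clusters 3 to 7 none of the 10 tests of Ebf1 and Rarb passed in edgeR's quasi-likelihood test, where 1.88%, 3.12%, 0.906%, 0.428% and 0.455% of all genes were called lower. Of these 10 tests, 4 had an unadjusted p under 0.05. DESeq2, which also tested the rarer genes there, called 3 of 20: Isl1 in clusters 3 and 5 and Zfp503 in cluster 4. Ebf1 in the deep-layer-like cluster 3 came nearest, with 106, 63, 67 and 148 UMIs in wildtype and 49, 19, 16 and 27 in knockout. Its log2 fold change was -1.49 ± 0.39 (edgeR, adjusted p = 0.0546), while a block for the replicate number gave an adjusted p of 0.00119. Without knockout 1 it was 0.00702 and without wildtype 3 it was 0.0335.

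In the 2 clusters where Ebf1 was most abundant, its genotype difference did not pass the test. In cluster 5 it had 437, 478, 267 and 540 UMIs in wildtype and 276, 581, 393 and 240 in knockout, with a log2 fold change of -0.34 ± 0.12 (edgeR, adjusted p = 0.267). In cluster 4 it had 111, 263, 89 and 403 UMIs in wildtype and 229, 79, 47 and 191 in knockout, and the samples of each group were widely spread. The log2 fold change there was -0.99 ± 0.56 (edgeR, adjusted p = 0.429). With sex as a covariate Ebf1 was called lower in cluster 4 (-1.52 ± 0.33, adjusted p = 0.0208) and cluster 3 (-1.71 ± 0.34, adjusted p = 0.0127), and not in cluster 5 (adjusted p = 0.297, edgeR). In clusters 6 and 7 the values were -0.74 ± 0.39 and -0.17 ± 0.20. Rarb had log2 fold changes from -0.60 in cluster 7 to -0.01 in cluster 5, and none of its 7 tests passed, although 4 had an unadjusted p under 0.05 (edgeR; DESeq2 called none).

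Zfp503 had 34 UMIs in wildtype and 8 in knockout in cluster 1, 24 and 4 in cluster 2, 28 and 2 in cluster 3, 34 and 10 in cluster 4, 20 and 3 in cluster 5 and 14 and 2 in cluster 7. Cluster 6 was the exception, with 18 and 10 UMIs, or 1.63 ± 0.88 and 1.57 ± 0.99 CPM. The difference between cluster 6 and the other clusters was 2.27 ± 0.60 on the log2 scale and did not pass the test (edgeR, adjusted p = 0.175).

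The test of whether a genotype effect differed between a cluster and the other clusters was made for the 4 genes in 7 clusters, and 1 of 28 passed. This was Ebf1 in cluster 1, whose log2 fold change was lower by 0.75 than that in the other clusters pooled (log2 difference -0.75 ± 0.19, edgeR, adjusted p = 0.0463), where 1.98% of genes passed in either direction. For clusters 2 to 7 this share was 4.51%, 1.91%, 1.54%, 0.418%, 0.395% and 1.13%. The call was lost without any 1 of wildtype 1, wildtype 3, wildtype 4 and the 4 knockout samples, with adjusted p from 0.0648 to 0.224. Without wildtype 3, Ebf1 passed in cluster 2 instead, and without knockout 1 in clusters 2, 3 and 5. Cluster 5 held 3212 of the 7401 Ebf1 UMIs and so weighs much in the pool. The log2 fold changes of Ebf1 in clusters 2 and 3 alone were no smaller in size than in cluster 1. The call therefore does not set cluster 1 apart from them. No such difference passed for Isl1.

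**Figure D3:**
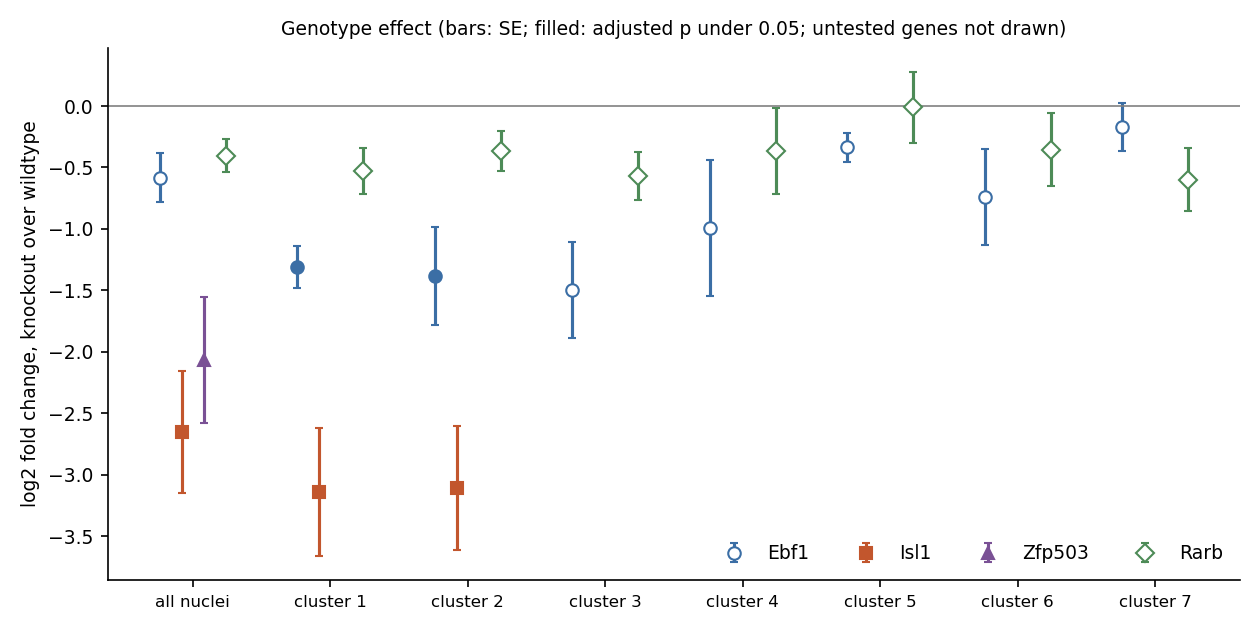
Log2 fold change of knockout over wildtype (vertical axis) for the 4 genes over all nuclei and in each cluster, with bars of 1 SE. Filled symbols passed an adjusted p of 0.05, and genes that failed the filter on low counts are not drawn: Isl1 lies between -3.14 and -2.65 and Rarb between -0.60 and -0.01.

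Most nuclei held no UMI of any of the 4 genes, 61614 of 67319 or 91.5%. Exactly 1 of the genes was found in 5514 nuclei, 2 of them in 179 and 3 in 12. No nucleus held all 4, which allows a share of up to 0.00446%. A UMI of Ebf1 was found in 3512 nuclei, of Rarb in 1656, of Isl1 in 531 and of Zfp503 in 209. In wildtype the share of nuclei was 6.43% ± 2.49 for Ebf1, 2.72% ± 0.36 for Rarb, 1.36% ± 0.71 for Isl1 and 0.495% ± 0.231 for Zfp503 (SD, n = 4). In knockout it was 3.93% ± 0.66, 2.18% ± 0.19, 0.211% ± 0.129 and 0.121% ± 0.112 in the same order. Nuclei with an Ebf1 UMI had a median of 2810.5 UMIs in all, against 2762 for those without.

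Nuclei with several UMIs of a gene were counted against the number expected from its detection rate and the depth of the nuclei, and all 4 genes had more than expected. Ebf1 had 2 or more UMIs in 1152 nuclei (6.02 times the expected number), with up to 58 in 1 nucleus, and Rarb in 157 (6.30 times), with up to 14. Isl1 had 2 or more in 18 nuclei (3.98 times), with at most 3, and Zfp503 in 2 (2.94 times). In the apical progenitor-like cluster 4 the ratio was 13.9 for Isl1, with 9 nuclei, 11.2 for Ebf1 and 7.06 for Rarb.

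Pairs of the genes were counted against the number expected if each gene were met at its own rate per UMI of depth within a sample and cluster. These are descriptions with no test. With all samples pooled, Ebf1 and Rarb were found together in 112 nuclei against 92.9 expected, Ebf1 and Isl1 in 52 against 40.2, and Isl1 and Zfp503 in 3 against 2.98. By sample, the ratio of observed to expected went both ways. It ran from 0.730 in knockout 2 to 1.803 in knockout 4 for Ebf1 and Rarb. For Ebf1 and Isl1, wildtype 4 held 25 of the nuclei against 22.9 expected, and the ratio was 0.936 in wildtype 1 and 3.884 in knockout 1. For Isl1 and Rarb it was 0.345 in wildtype 1, 1.571 in wildtype 4 and 6.796 in knockout 1. The pooled excess lay in cluster 4: Ebf1 and Rarb in 41 nuclei against 16.3 expected, Ebf1 and Isl1 in 14 against 4.86, and Isl1 and Rarb in 12 against 3.09. In cluster 5, where Ebf1 was most abundant, Ebf1 and Rarb were together in 21 nuclei against 28.0 expected and Isl1 and Rarb in none against 1.27. In cluster 1 Ebf1 and Isl1 were together in 5 nuclei against 7.01 expected.

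The same count was made with markers of GABAergic and of cortical neurons. In cluster 4, Ebf1 met Gad2, which makes GABA, in 64 nuclei against 30.5 expected. There Isl1 met Dlx6os1, a noncoding RNA of the ventral Dlx locus, in 19 against 5.95, and Rarb met Gad2 in 47 against 21.8. In the same cluster Ebf1 met Neurod6, a factor of excitatory neurons, in 212 nuclei against 220.5 and Tbr1 in 51 against 45.9, and Isl1 met Neurod6 in 34 against 37.7. Over all nuclei the pair of Ebf1 and Gad2 was nearer to the expected number, in 237 against 160.3. Other pairs there were Ebf1 with Dlx6os1, in 125 against 124.4, and Isl1 with Gad2, in 34 against 28.3. Isl1 with Dlx6os1 and Rarb with Gad2 are given by level instead. Dlx6os1 was 1.87 times as high in nuclei with an Isl1 UMI as in matched nuclei without, and above 1 in 5 samples. Gad2 was 1.84 times as high with Rarb, and above 1 in 6 samples.

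**Figure D4:**
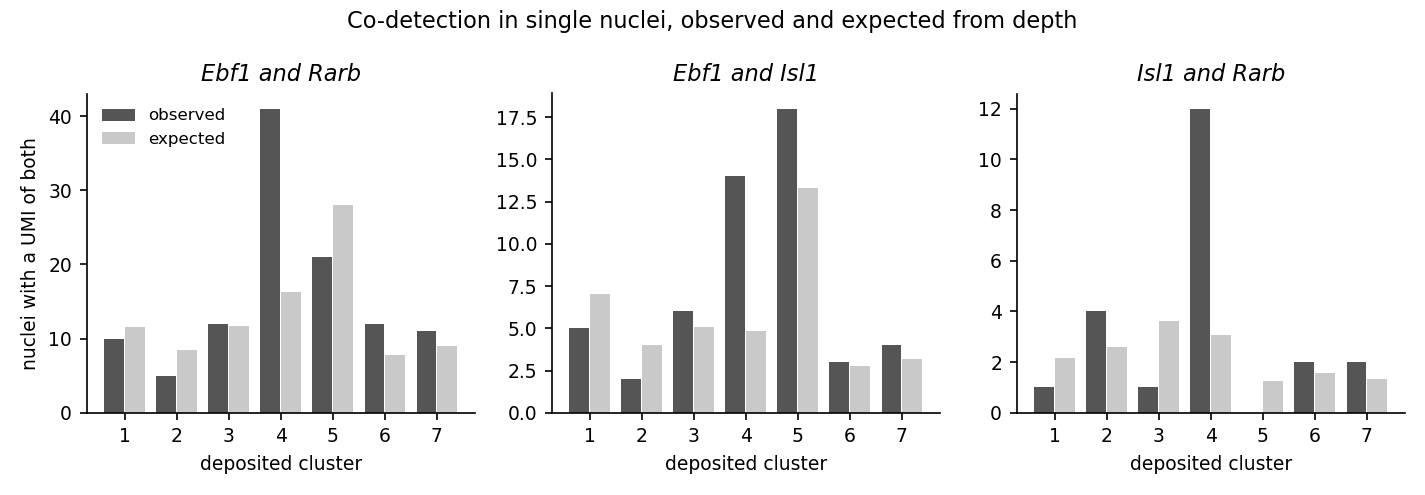
Number of nuclei with a UMI of both genes of a pair (vertical axes) in the 7 deposited clusters, all samples pooled, with dark bars for the observed and light bars for the expected number. In cluster 4 the observed numbers are 41, 14 and 12 against 16.3, 4.86 and 3.09 expected.

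A small number of nuclei carried much of the Ebf1. Nuclei with 5 or more Ebf1 UMIs, a limit chosen after the values were seen, numbered 289 and held 2869 of 7401 Ebf1 UMIs (38.8%). They were mainly in cluster 5, with 181 nuclei, and in cluster 4, with 45. The 45 nuclei of cluster 4 held 888 of the 1412 Ebf1 UMIs of that cluster (62.9%). By sample they numbered 4, 8, 3 and 12 in wildtype and 8, 3, 1 and 6 in knockout, so both groups had them. Those of cluster 5 numbered 25, 22, 12 and 33 in wildtype and 10, 37, 26 and 16 in knockout.

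The other genes in Ebf1-rich nuclei were read in clusters 4 and 5. In cluster 4, Rarb ranked first by ratio among genes with at least 20 UMIs. It was found in 51.1% of the 45 nuclei against 2.97% of nuclei of the cluster without Ebf1, and Isl1 in 22.2% against 0.628% (from 13 UMIs). The level of Rarb was 45.1 times and that of Isl1 24.2 times that of nuclei without Ebf1, matched by sample. Gad2 was found in 60.0% against 4.94%. Of the 18 other striatal genes, 13 had a ratio above 1 and 5 had no UMI. Among the 13 were Zfhx3 with a ratio of 6.68, Bcl11b with 4.84, Ikzf1 with 15.6 (from 9 UMIs), Rxrg with 8.50 (from 5 UMIs), Foxp1 with 2.16, Meis2 with 1.29 and Mn1 with 1.18. In nuclei with any Ebf1 UMI over all clusters, Foxp1 (0.892), Foxp2 (0.862), Meis2 (0.931) and Mn1 (0.913) were below 1. Rxrg is a retinoid X receptor, the partner with which retinoic acid receptors bind DNA. The proliferation marker Mki67 was lower, with a ratio of 0.445. The median depth of these nuclei was 3685 UMIs against 2893, and their median deposited doublet score was 0.269 against 0.103. The part of doublets or depth in this was not tested.

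In cluster 5 the Ebf1-rich nuclei were not rich in Rarb, while Gad2 had a ratio of 5.40. Rarb was in 1.10% of the 181 nuclei against 2.07% of those without Ebf1, and Isl1 in 2.21% against 0.705%. The leading gene was Lmx1a, a LIM homeodomain factor known from the cortical hem, in 6.08% against 0.337%, with a ratio of 34.7. It was followed by Rspo2, a secreted enhancer of Wnt signalling (ratio 15.8), and further down by the neurotrophin gene Ntf3 (9.97) and Reln (8.85). Reln encodes reelin, the secreted protein of Cajal-Retzius cells, and was found in 31.5% against 9.27%. The Cajal-Retzius markers Calb2 and Lhx5 had only 5 UMIs each there. In nuclei with any Ebf1 UMI over all clusters, the 8 Cajal-Retzius genes had ratios from 1.29 (Ebf2) to 3.47 (Reln). Among them Lhx5 had 2.64 (from 21 UMIs) and Calb2 2.24 (from 53 UMIs), each above 1 in 7 samples. In the Ebf1-rich nuclei of cluster 5 the intermediate progenitor factor Eomes was lower, with a ratio of 0.575.

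**Figure D5:**
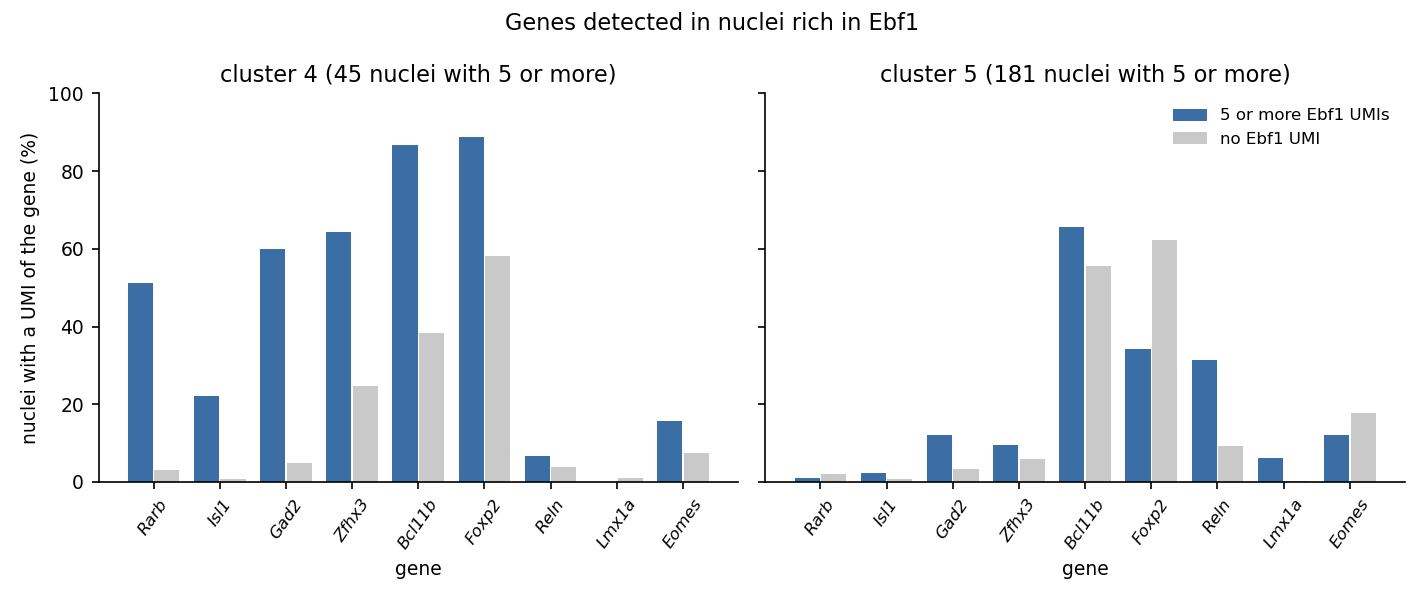
Percent of nuclei with a UMI of each gene (vertical axis, 0 to 100) among nuclei with 5 or more Ebf1 UMIs (blue) and nuclei without Ebf1 (grey) of clusters 4 and 5, samples pooled. Rarb, Isl1 and Gad2 stand out in cluster 4 (51.1%, 22.2% and 60.0%), Reln and Lmx1a in cluster 5 (31.5% and 6.08%).

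Over all clusters, the genes most raised in nuclei with an Ebf1 UMI, against nuclei of the same sample and cluster without one, were Lmx1a (ratio 4.99), the tachykinin gene Tac2 (3.85), Reln (3.47) and Bnc2 (3.03), each raised in 8 of 8 samples. Dkk2, Fign, Col28a1, Car10, Bmp6 and Ntf3 followed, with ratios of 2.79 to 2.54 in 7 or 8 samples. For Rarb the leading genes were the serotonin receptor gene Htr4 (4.09), the cadherin gene Cdh18 (2.67), Abca8a (2.64) and Pls1 (2.55), in 8 of 8 samples, then Neto1, A230006K03Rik, Oprm1, Gm14697, Nxph1 and 4930447C04Rik. For Isl1 the ratios were smaller: Gm14204 (2.07), Nell1 (1.95), the striatal marker Zfhx3 (1.95) and Dlx6os1 (1.87), in 5 or 6 samples, then Thsd7a, Map3k1, Nrxn3, Gm7072, Crebl2 and Polr2b. For Zfp503, with 209 nuclei, they were Snhg11 (4.25), Gpc5 (3.99), Nr3c2 (3.24) and Tshz2 (2.98), in 3 to 5 samples, then Reln, St18, Grm7, Grik1, Cdh18 and Cdh12. The median ratio over all genes ranked was 0.991 to 1.01 for the 4 genes.

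Likeness of pattern was measured by Pearson's r of log2(CPM + 1) over the 56 sums of a sample and cluster, among 10061 genes. These sums share libraries and depth and hold both genotypes, so differences between genotypes and between clusters both enter r. The part of each was not tested. The genes most like Ebf1 were Qser1 (r = 0.857), Igdcc3, Epc1, Zhx3 and Lama2 (0.822). Those most like Isl1 were Xpo7 (0.793), mt-Nd3, Prcc, 2410018L13Rik and Gm13307 (0.746), and those most like Rarb were Ccdc82 (0.668), Mindy4, Gm37194, Cep126 and Gm26631 (0.632). The gene most like Zfp503 was Gad2 (0.709), followed by Akap11, Sucla2 and Xpo7 (0.650).

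Markers of ventral cells moved with genotype beside Isl1 and Zfp503. The summed level of 11 ventral telencephalic GABAergic genes was 129, 90.0, 74.9 and 115 CPM in wildtype and 106, 44.6, 49.3 and 48.2 in knockout, with none of the genes at 0. Knockout 1 lay within the wildtype range, and it also had the highest Isl1, Zfp503, Ebf1 and Rarb of the knockout samples. Of 9 genes tested, 3 were called lower: Dlx2 (-1.31 ± 0.32) and Dlx5 (-1.14 ± 0.23), homeobox factors of the ganglionic eminences, and Slc32a1 (-0.90 ± 0.16), the vesicular GABA transporter. All 9 had a log2 fold change below 0, with a median of -0.95 against 0.00 over all genes. With the replicate number as a block, 6 were called lower. The block raised the calls over all 13927 genes tested too, from 499 lower and 233 higher to 831 and 513. In cluster 1, 4 of 8 fell: Dlx2 (-1.82 ± 0.29), Dlx5 (-1.43 ± 0.27), Dlx6os1 (-1.34 ± 0.31) and Gad2 (-1.32 ± 0.24), and 6 with the block. There 268 of all 11664 genes tested were called lower, and 389 with the block. Fewer ventral cells and less RNA per cell cannot be told apart in these sums, and the part of either in the levels of Isl1 and Zfp503 was not tested.

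Other markers of the striatum were called in both directions. Of 15 further striatal genes tested over all nuclei, 2 were called lower and 1 higher, with a median log2 fold change of -0.16. Among all 13927 genes tested, 499 were called lower and 233 higher. Rxrg was at 2.52 ± 1.44 CPM in wildtype and 0.661 ± 0.016 in knockout (log2 fold change -1.94 ± 0.38). Foxp1, a forkhead factor that cortical neurons share, rose from 334 ± 8 to 450 ± 34 (0.43 ± 0.06). In cluster 1, where Ebf1 and Isl1 fell, 3 of 8 were called higher and none lower (1 lower with the block), and 2.54% of all genes tested were called higher. They were Foxp2 (0.79 ± 0.08), Bcl11b (0.74 ± 0.11) and Foxp1 (0.62 ± 0.07). These 3 are also factors of deep-layer cortical neurons. The summed level of the 18 genes was 3609 to 4234 CPM in wildtype and 3928 to 4446 in knockout.

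Of 10 genes of the medial ganglionic eminence and of interneurons tested, 3 were called lower over all nuclei: Sfta3-ps (-2.91 ± 0.49), the neuropeptide gene Npy (-1.61 ± 0.28) and the interneuron factor Lhx6 (-0.69 ± 0.14). Their list summed to 406 to 632 CPM in wildtype and 403 to 733 in knockout. Of 9 cortical excitatory neuron genes, Emx1 (0.46 ± 0.08) and Neurod6 (0.41 ± 0.08) were called higher, and 4 were called higher with the replicate block, with 1 called lower in each fit. Among all 13927 genes tested, 233 were called higher and 499 lower, or 513 and 831 with the block.

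Relatives of the 4 factors were tested in the same fits. Of 12 other genes of EBF and LIM factors and their partners tested over all nuclei, 2 were called higher and none lower, or 4 higher with the block, with a median of 0.23. Among all 13927 genes, 233 were called higher and 499 lower, or 513 and 831 with the block. The LIM homeodomain factors Lhx2 (0.33 ± 0.06) and Lhx9 (0.61 ± 0.13) rose. Within cluster 1 Lhx9 rose (1.38 ± 0.19), and in cluster 2 Ebf4 fell (-0.57 ± 0.13). Of 13 retinoid pathway genes tested, Nrip1, a corepressor of nuclear receptors, fell from 106 ± 17 to 63.2 ± 9.7 CPM (-0.75 ± 0.13), as did Rxrg, and 4 fell with the block. Nrip1 fell further within cluster 2 (-1.23 ± 0.16, log2), and in cluster 4 the retinal reductase gene Dhrs3 fell by 0.90 ± 0.16. The retinoid median was -0.03 over all nuclei.

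Markers of cells outside these lineages were read in the same way. Of 7 Cajal-Retzius genes tested over all nuclei none was called (1 with the block), and Reln was called higher in clusters 2, 3 and 5, by 0.73 ± 0.13 in cluster 5 (log2). Of 10 mural and vascular genes, Pdgfrb (-0.95 ± 0.21) and Col4a2 (-0.58 ± 0.13) were called lower, and their summed level was 34.0 to 36.7 CPM in wildtype against 25.5 to 28.9 in knockout. None of 7 microglia and blood genes was called in edgeR (1 lower with the block), and they summed to 326 to 592 CPM in wildtype and 223 to 495 in knockout. Of 3 choroid plexus and hem genes tested none was called in edgeR (1 lower with the block). The 5 genes of this list in the files summed to 126 CPM in wildtype 3 and 39.6 in wildtype 4, against 2.05 to 7.08 in the other 6 samples. The 5 thalamus genes held 2 called higher, Lef1 (0.79 ± 0.12) and Lhx9. Over all nuclei 233 of 13927 genes were called higher and 499 lower, or 513 and 831 with the block.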

How the data were processed

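Nuclei of 4 wildtype and 4 Pantr2 knockout samples were profiled by single-nucleus RNA sequencing. The authors deposited UMI counts per gene and nucleus, with a cluster and a doublet score for each nucleus. They used kallisto, bustools and mm10, per the submitters' processing notes, and the versions are not given in the sources used here. The deposited scores reach at most 0.5, and no doublet caller was run. Gene positions come from GRCm38, since those in the files differ from it.

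Counts of the nuclei of a sample, all together or cluster by cluster, were added up and tested with edgeR 4.0.16 in R 4.3.3 (quasi-likelihood test, TMM factors, filterByExpr, genotype as the only term). Benjamini-Hochberg adjustment covered all genes of a fit, with a threshold of 0.05. Differences between a cluster and the others were tested as an interaction with sample as a block. DESeq2 1.42.0 was an alternative. On simulated counts in which 200 of 13927 genes differed by 1 on the log2 scale, the all-nuclei fit recovered 90.5% of them, and 9.5% of its calls were false. The fits of clusters recovered 77.5% to 88.5%, and those of differences between clusters 57.5% to 81.5%. Same-numbered samples deviated together (r = 0.398, 0.185, 0.192 and 0.179 for numbers 1 to 4), each over the limit of 0.1, while pairs of different number ran from -0.356 to 0.287, so the replicate number was run as a block. Pantr2 was not analysed here, and some genes counted in the lists are not reported here by name.

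Genes named as most alike are the 5 with the highest r, and companions the 10 with the highest ratio among genes with at least 50 UMIs in the positive nuclei. The 4 genes and the lists were chosen with earlier results of these data known. Intervals cover counting error only.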

Additional observations from a re-analysis of the deposited data

Results flagged for a closer look

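Among the levels per cluster and genotype, 64 groups of 4 samples were read for a sample far from the others. Chance alone would set apart about 5% of such groups if values were normally distributed, which counts near 0 are not. All 4 flagged levels rest on few UMIs. In cluster 1, Zfp503 was at 1.49 CPM in knockout 1 (4 UMIs) and at 0.197 to 0.262 in the other knockout samples (2, 1 and 1 UMIs). In cluster 2, Zfp503 was at 0.785 in wildtype 1 (4 UMIs) and at 1.52 to 1.63 in the other wildtype samples (6, 7 and 7). In cluster 3, Isl1 was at 1.93 in knockout 1 (6 UMIs) against 0.389 to 0.649 in the other knockout samples (2, 2 and 3). Zfp503 was at 0.644 in knockout 1 there (2 UMIs) against 0 in the others. These samples are therefore not read as outliers. The genotype effect on Ebf1 differed between cluster 1 and the other clusters pooled, by -0.75 on the log2 scale (edgeR, adjusted p = 0.0463). This call was lost when most single samples were left out. In clusters 2 and 3 alone the log2 fold change of Ebf1 was no smaller in size than in cluster 1.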

How the results depend on the processing

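Of the 4 genes, 2 were called over all nuclei, 4 with sex as a covariate and 0 to 3 when single samples were left out. Of the tests in clusters, 4 passed, 8 without the filter on low counts and 3 to 6 with samples left out. Of the differences between clusters, 1 passed, and 0 to 3 with samples left out. The replicate block added the call of Ebf1 in cluster 3 and changed no other call of the 4 genes (adjusted p = 0.00119, edgeR). Leaving out the nuclei with 5 or more Ebf1 UMIs, an alternative chosen after seeing the data, left 2 and 4 calls.

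Directions turned only for values that passed no test. Rarb in cluster 5 was 0.030 (log2) with sex as a covariate and ran from -0.27 to 0.22 with samples left out, and Ebf1 in cluster 7 from -0.36 to 0.034. For a cluster against the others, the ranges were -0.063 to 0.14 for Rarb in cluster 2, -0.00428 to 0.71 for Isl1 in cluster 3, -0.18 to 0.32 for Rarb in cluster 4 and -0.74 to 0.21 for Isl1 in cluster 5. They were -0.99 to 0.092 for Isl1, -0.18 to 0.26 for Rarb and -0.25 to 0.12 for Ebf1 in cluster 6, and -0.65 to 0.20 for Isl1 and -1.39 to 0.52 for Zfp503 in cluster 7. The cause was not tested. Zfp503 had 39 UMIs in knockout over all nuclei.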
